A study of Homo sapiens with 60 samples.

Results

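The respiratory chain is a large machine of the cell whose parts come from both genomes, and its genes are described here as a mitochondrial set and a nuclear set. Members were the protein-coding genes of the deposited table whose symbols begin with MT-ND, MT-CO, MT-CYB or MT-ATP (13 mitochondrial genes) or with the stems of the nuclear subunits: NDUFA, NDUFB, NDUFC, NDUFS and NDUFV of complex I, SDHA to SDHD of complex II, UQCR of complex III, COX4I, COX5, COX6, COX7 and COX8 of complex IV, and ATP5F1, ATP5M and ATP5P of complex V (89 nuclear genes). The NDUFAF assembly factors were left out. This gave 102 of the 60675 genes in the table, of which 96 had enough counts to be tested, all 13 mitochondrial and 83 nuclear. The nuclear set divides into 38 genes of complex I, 4 of complex II, 9 of complex III, 19 of complex IV and 19 of complex V, and the mitochondrial set into 7, 0, 1, 3 and 2. NDUFA4 and NDUFA4L2 carry complex I symbols, but NDUFA4 is now known as a complex IV subunit, so both are counted with complex IV.

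Complexes I to IV pass electrons from NADH and succinate to oxygen. Complexes I, III and IV pump protons across the inner mitochondrial membrane, and complex V (ATP synthase) uses the resulting gradient to make ATP. The mitochondrial genes are transcribed as long polycistronic RNAs from the circular mitochondrial chromosome by a dedicated polymerase, while the nuclear genes are transcribed one by one, many of them through NRF1, GABPA and the PGC-1 coactivators, and their proteins are imported. Colon carcinoma lines use both glycolysis and respiration, and complex I, III, IV and V each need subunits of both genomes, whereas complex II is all nuclear.

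HT29 cells, an established line from a human colorectal adenocarcinoma, were exposed for 24 h to DMSO as the vehicle (3 libraries) or to an ethanol extract of a herb or a herbal formula, and polyadenylated RNA was sequenced. The herbs were Menthae Herba and Saposhnikoviae Radix (3 libraries per dose at 500, 100 and 20 µg/mL), Polygalae Radix (2 per dose at 380, 76 and 15.2 µg/mL) and Aucklandiae Radix (2 per dose at 370, 74 and 14.8 µg/mL). The formulas, which combine several herbs, were Saengmaek-san and Guibi-tang (3 per dose) and Soyo-san (2 per dose) and Okbyeongpung-san (1 per dose), all at 500, 100 and 20 µg/mL. The doses are called high, medium and low. All groups are the same cell line with no genetic change. The vehicle is given as 0.1% DMSO in the sample labels and as 2% in the series description, and a wortmannin control named there was not analysed here. Nothing in the labels tells whether replicate libraries came from cultures of their own, and every p below reflects library-to-library spread, which may be technical. Library names carry a set prefix that Polygalae Radix shares with Aucklandiae Radix, Menthae Herba with Saposhnikoviae Radix, Saengmaek-san with Guibi-tang and Soyo-san with Okbyeongpung-san. The vehicle libraries have a prefix of their own, so in every comparison with the vehicle an extract effect and a difference between sets cannot be told apart, and all such comparisons share the same 3 libraries.

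The 60 libraries held 17079221 to 36796414 expected counts. The library labelled Saposhnikoviae Radix low replicate 2 was unlike the rest. It correlated with its group mates at up to 0.848, where all other libraries with a group mate reached 0.996 or more. Its summed nuclear set was 25320 CPM (depth-scaled counts), against 5815 to 8198 CPM in the other 59 libraries, and its mitochondrial set was 38180 CPM, against 58040 to 110700 CPM. It was left out of every test below, and the counts of members called with it in the fit (57 libraries) are given beside each high-dose comparison, against low dose and against the vehicle. The 11 colon epithelial markers summed to 7409 to 14830 CPM in the other 59 libraries with none at 0, the 6 fibroblast markers to 1.51 to 3.43 CPM and the 6 blood cell markers to 2.97 to 9.98 CPM. Group differences were tested with edgeR's two-sided quasi-likelihood test over 16978 genes and 56 libraries. A member is said to have risen or fallen where its Benjamini-Hochberg adjusted p over all those genes was under 0.05. Changes are log2 fold changes with their standard error (SE).

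The mitochondrial messages are compact, and their ends are shown because they are what the counting of these genes has to resolve: several have no complete stop codon in the DNA, and 3 pairs of neighbours overlap. The printed runs are the last bases of 4 of the 13 transcripts as GENCODE 29 gives them, read 5′ to 3′ on the coding strand, with the letters of the stop codon in capitals.
MT-CO1: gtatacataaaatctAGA
MT-CO3: atctattgatgagggtctT
MT-ND1: agcattccccctcaaaccTA
MT-ND6: attgctcgggggaatAGG
By the annotated lengths, 6 of the 13 genes, MT-CO3 and MT-ND1 among them, lack letters of the final codon, which the poly(A) tail completes. In the other 7 the final codon is whole in the DNA. MT-CO1, the catalytic subunit of cytochrome c oxidase (complex IV), lies at chrM:5904-7445, and MT-CO3, a core subunit of the same complex, at chrM:9207-9990 (GRCh38, plus strand). MT-ND6, a membrane subunit of complex I at chrM:14149-14673, is the only one of the 13 on the minus strand. The 46 bases that MT-ATP8 and MT-ATP6, both complex V subunits made from 1 shared message, have in common at chrM:8527-8572 follow, with the start codon of MT-ATP6 and the stop codon of MT-ATP8 in capitals.
MT-ATP8 and MT-ATP6 overlap: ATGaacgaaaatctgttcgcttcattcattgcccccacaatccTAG
MT-ND4L and MT-ND4 share 7 bases in the same way, and MT-ATP6 and MT-CO3 share 1, the last base of the MT-ATP6 stop codon. Reads in such overlaps, and reads shared with the 391 nuclear pseudogenes of mitochondrial genes (MTATP6P1, the highest, had a mean of 1619 CPM), can be divided by the counting, so values of single mitochondrial genes are uncertain to that extent.

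Messages of the 13 mitochondrial genes far outnumbered those of the 89 nuclear genes. In the vehicle libraries the mitochondrial set summed to 110700, 81910 and 109500 CPM and the nuclear set to 7178, 7717 and 8198 CPM, a ratio of 15.4, 10.6 and 13.4. Over the other 59 libraries the ratio ran from 8.55 to 15.9 with a median of 11.4. Per kilobase of the principal transcript (GENCODE 29), the vehicle level had a median of 7114 CPM per kb over the mitochondrial genes, from MT-ND6 (1985 CPM per kb) to MT-CO2 (17940 CPM per kb). The same median was 55.8 CPM per kb over the 83 tested nuclear genes. CPM are relative levels, and in bulk RNA fewer cells and less RNA per cell cannot be told apart.

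Replicates differed more in the mitochondrial set than in the nuclear set. The pooled standard deviation between libraries of a group was 0.167 on the log2 scale for the summed mitochondrial set and 0.0448 for the summed nuclear set (34 residual degrees of freedom). For single genes its median was 0.186 over the 13 mitochondrial members, 0.0813 over the 83 nuclear members and 0.112 over all 16978 genes. The 115 other genes with a mean at least as high as the lowest mitochondrial member had a median of 0.0622. By these medians mitochondrial messages varied more between replicates than the 115 genes, which share a lower bound of abundance with them but were not matched further. Across 59 libraries, mitochondrial members moved together, with a median pairwise Pearson correlation of 0.77 (78 pairs, log2 CPM). Nuclear members were looser, with a median of 0.42 over 3160 pairs of genes with a mean of at least 5 CPM, and the 1040 pairs across the sets had a median of -0.03. As deviations from group means the 3 medians were 0.78, 0.35 and -0.19, over 56 libraries. All of these pairs share library and depth, so they are descriptions.

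**Figure D1:**
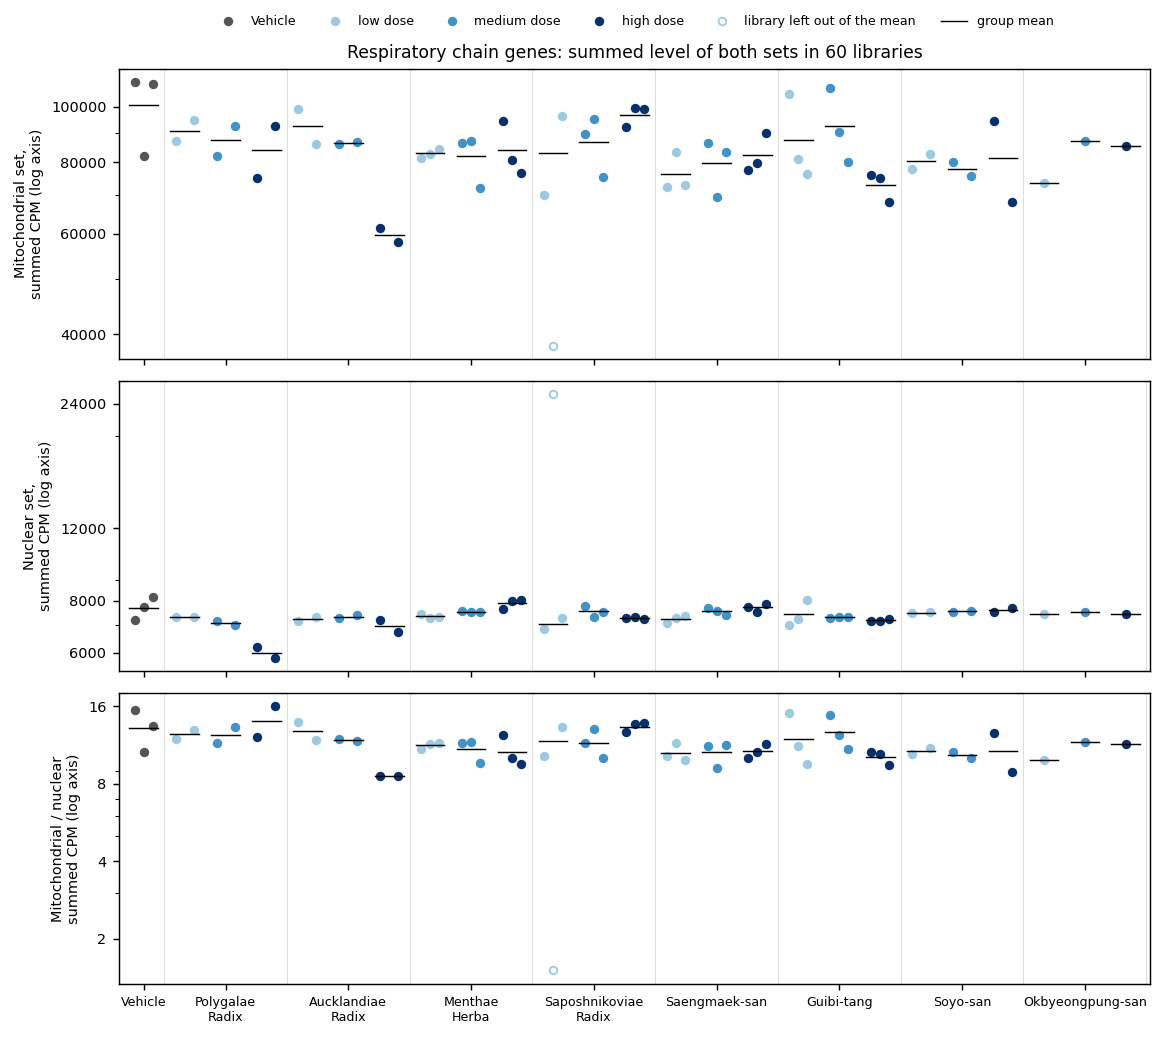
Summed level in CPM (depth-scaled counts, log axis) of the 13 mitochondrial genes, of the 89 nuclear genes and their ratio in each of the 60 libraries, by group. Aucklandiae Radix high has the lowest mitochondrial sums of the 59 other libraries (61500 and 58040 CPM), Polygalae Radix high has the lowest nuclear sum (5815 CPM), and the library labelled Saposhnikoviae Radix low replicate 2 lies outside the range of all others.

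At the high dose of Polygalae Radix many nuclear members were lower, and no mitochondrial member was called. The nuclear set summed to 7331 and 7301 CPM at low dose, 7153 and 6989 CPM at medium dose and 6181 and 5815 CPM at high dose, and the high-dose libraries lay below every vehicle, low-dose and medium-dose library. From low to high dose 2 of the 83 nuclear members rose and 38 fell, with a median change of -0.22, while 29.4% of all genes tested were called (13.3% higher, 16.0% lower) and the median over all genes was -0.01. The share that fell, 38 of 83, lay above that 16.0%. The mitochondrial set summed to 87070 and 94740 CPM at low dose and 75240 and 92730 CPM at high dose, groups that overlap. None of the 13 mitochondrial members was called by edgeR, at an unadjusted p under 0.05 or by DESeq2, and their median change was -0.12. Single mitochondrial genes varied more between replicates than nuclear members, so falls of the size of the nuclear median could go uncalled among them.

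ATP synthase and complex III carried the largest falls. ATP5F1A, the alpha subunit of the catalytic head of ATP synthase (ENSG00000152234, chr18:46080248-46104334), was at 287, 279 and 274 CPM in the vehicle libraries, 291 and 282 CPM at low dose, 234 and 248 CPM at medium dose and 141 and 147 CPM at high dose. The high-dose values lay far below all others, a change of -0.99 ± 0.05 (SE) from low dose or 0.503-fold (edgeR adjusted p = 8.91e-21). UQCRC2, a core protein of complex III (ENSG00000140740, chr16:21952660-21983660), was at 166 and 171 CPM at low dose, 147 and 155 CPM at medium dose and 94.8 and 98.5 CPM at high dose. Its change was -0.80 ± 0.04 (adjusted p = 3.07e-19). UQCRC1, the other core protein (chr3:48599002-48610976), was at 95.6 and 94.3 CPM at low dose, 93.2 and 84.9 CPM at medium dose and 62.2 and 55.1 CPM at high dose, with a change of -0.70 ± 0.06 (adjusted p = 5.7e-12). Its high-dose libraries lay below all the others. ATP5F1C, the gamma subunit that turns inside the head of ATP synthase, was at 131 and 131 CPM at low dose, 114 and 126 CPM at medium dose and 83.1 and 89.1 CPM at high dose, a change of -0.60 ± 0.07 (adjusted p = 4.94e-09). Here too the high-dose group did not overlap with any other dose or with the vehicle.

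By complex, 18 of 38 complex I genes, 2 of 4 complex II genes, 2 of 9 complex III genes, 7 of 14 tested complex IV genes and 9 of 18 tested complex V genes fell from low to high dose. The complex I genes that fell include NDUFS1, the large iron-sulfur subunit that takes up electrons from NADH by way of NDUFV1 (-0.54), NDUFV1 itself (-0.48), NDUFA9 (-0.51) and NDUFS4 (-0.48). Within the head of ATP synthase, the catalytic beta subunit ATP5F1B fell as well (-0.56), and so did ATP5PB of the peripheral stalk (-0.51). SDHA, the flavoprotein of complex II (chr5:218241-256700), was at 265 and 270 CPM at low dose and 188 and 173 CPM at high dose, a change of -0.57 ± 0.05 (adjusted p = 3.94e-13), with no overlap. COX4I1, an early-assembling subunit of complex IV, was at 154 and 157 CPM at low dose and 139 and 123 CPM at high dose and fell by 0.25 on the log2 scale. The members that rose were UQCR11, a small subunit of complex III at 37.1 and 34.6 CPM at low dose and 46.1 and 38.5 CPM at high dose (0.24 ± 0.08, adjusted p = 0.0236), and COX7A2L, which helps join complexes III and IV into supercomplexes (0.18 ± 0.06, adjusted p = 0.0149). The call of UQCR11 was lost without high replicate 2 (0.10, adjusted p = 0.527) and that of COX7A2L likewise (0.13, adjusted p = 0.209).

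At medium dose the nuclear falls were few. From low to medium dose 3 nuclear members fell, ATP5F1A (-0.25), NDUFS1 (-0.19) and UQCRC2 (-0.16), where 2.11% of all genes fell. No mitochondrial member was called by edgeR there, and 0 mitochondrial and 14 nuclear members had an unadjusted p under 0.05. The number of nuclear members called from low to high dose was 26 without high replicate 3 and 11 when the library that stood apart entered the fit, against 40. No mitochondrial member was called with that library either. With no filter on low counts 2 mitochondrial members were called from low to high dose.

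**Figure D2:**
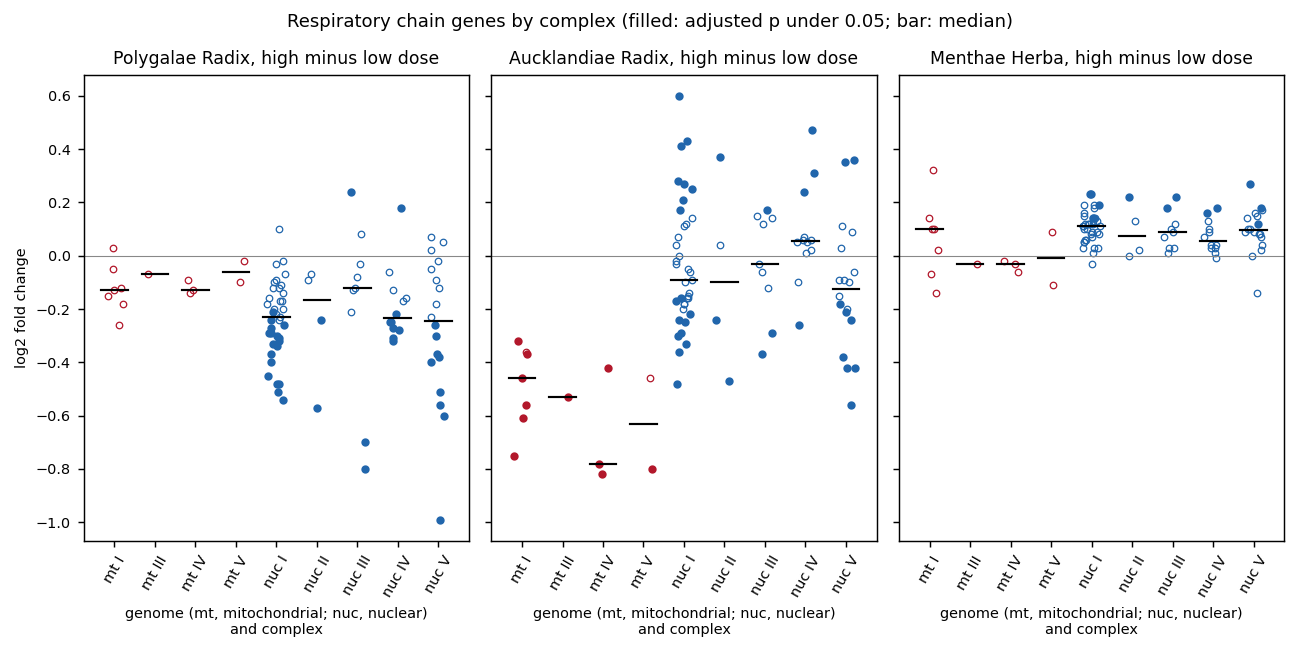
Log2 fold change from low to high dose of each respiratory chain gene by genome and complex for Polygalae Radix, Aucklandiae Radix and Menthae Herba. Each dot is a gene with a mean of at least 5 CPM (13 mitochondrial and 80 nuclear), filled where the adjusted p is under 0.05, and bars are medians: for Polygalae Radix the filled genes lie below 0 except UQCR11 and COX7A2L, for Aucklandiae Radix mitochondrial genes lie at -0.82 to -0.32 and nuclear genes on both sides of 0, and for Menthae Herba the filled genes all lie above 0.

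At the high dose of Aucklandiae Radix most mitochondrial messages fell, and nuclear members changed in both directions. The mitochondrial set summed to 99190 and 86270 CPM at low dose, 86280 and 86880 CPM at medium dose and 61500 and 58040 CPM at high dose. Those high-dose sums were the lowest of the 59 libraries, while the nuclear set was at 7196 and 6744 CPM, against 7154 and 7304 CPM at low dose. The nuclear reading depends on the scaling. As a plain share of counts that set was 0.674% and 0.636% at high dose against 0.711% and 0.733% at low dose, lower without overlap. The ratio of the sets was 8.55 and 8.61 at high dose against 13.9 and 11.8 at low dose. From low to high dose 11 of 13 mitochondrial members fell and none rose, with a median of -0.53, where 58.7% of all genes tested were called (29.6% higher, 29.2% lower) and the median over all genes was -0.02. Of the 83 nuclear members, 16 rose and 22 fell, with a median of -0.06, and both shares lay below those backgrounds.

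The complex IV messages MT-CO1 and MT-CO3 had the clearest falls. MT-CO1 was at 22730, 19350 and 24850 CPM in the vehicle libraries, 20520 and 17900 CPM at low dose, 18580 and 17980 CPM at medium dose and 11330 and 11060 CPM at high dose. The high-dose libraries lay well below all others, with a change of -0.78 ± 0.12 from low dose (adjusted p = 7.4e-07). MT-CO3 was at 13300 and 11430 CPM at low dose, 11590 and 11270 CPM at medium dose and 7464 and 6500 CPM at high dose, a change of -0.82 ± 0.13 (adjusted p = 3.65e-07), again without overlap. MT-ATP6, the proton channel subunit of ATP synthase, was at 10940 and 7681 CPM at low dose, 7149 and 8642 CPM at medium dose and 5303 and 5403 CPM at high dose (-0.80 ± 0.22, adjusted p = 0.00194). MT-CYB, the only mitochondrial subunit of complex III, was at 8257 and 7669 CPM at low dose and 5783 and 5280 CPM at high dose (-0.53 ± 0.17, adjusted p = 0.0074). MT-ND1, a core membrane subunit of complex I, was at 4885 and 4197 CPM at low dose and 2951 and 2998 CPM at high dose (-0.61 ± 0.20, adjusted p = 0.00923). In each of these genes both high-dose libraries lay below both low-dose libraries. The other complex I messages that fell were MT-ND2 (-0.75), MT-ND4 (-0.56), MT-ND5 (-0.46), MT-ND3 (-0.37, adjusted p = 0.048, against 0.0794 in DESeq2) and MT-ND4L (-0.32), and MT-CO2 of complex IV fell by 0.42.

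MT-ND6 and MT-ATP8 were the mitochondrial members not called from low to high dose. MT-ND6 was at 1031 and 611 CPM at low dose and 706 and 577 CPM at high dose, groups that overlap, with a change of -0.36 ± 0.23 (adjusted p = 0.179). MT-ATP8, which shares its message with MT-ATP6, was at 1403 and 1195 CPM at low dose and 949 and 935 CPM at high dose, with a change of -0.46 ± 0.25 (adjusted p = 0.112). The mitochondrial ribosomal RNAs, transcribed from the same strand as most members, were both called lower, MT-RNR2 by -0.62 and MT-RNR1 by -0.35. The number of mitochondrial members called was 3 without low replicate 2, 5 without high replicate 3 and 7 without high replicate 2, and 4 with the library that stood apart. MT-CO1 and MT-CO3 were called in each of these 4 fits. At medium dose no member of either set was called against low dose by edgeR, where 2.60% of all genes were, and 0 mitochondrial and 4 nuclear members had an unadjusted p under 0.05.

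Among the nuclear members that rose with Aucklandiae Radix were small accessory subunits. NDUFV3, an accessory subunit of the NADH-oxidising module of complex I (ENSG00000160194, chr21:42879644-42913304), was at 16.7 and 16.9 CPM at low dose, 19.7 and 18.5 CPM at medium dose and 26.0 and 24.8 CPM at high dose, a change of 0.60 ± 0.08 (adjusted p = 1.01e-08). The vehicle libraries, at 19.6, 21.8 and 25.6 CPM, overlap with the high dose. NDUFA4, the complex IV subunit (ENSG00000189043, chr7:10931951-10940256), was at 91.7 and 84.2 CPM at low dose, 83.7 and 90.0 CPM at medium dose and 126 and 118 CPM at high dose, above every vehicle library (89.2, 94.3 and 104 CPM). Its change was 0.47 ± 0.07 (adjusted p = 7.97e-08). NDUFB9 (0.43 ± 0.09, adjusted p = 6.09e-05) and NDUFA1 (0.41 ± 0.11, adjusted p = 0.00108), accessory subunits of the membrane arm of complex I, also rose. SDHB, the iron-sulfur subunit of complex II, was at 72.5 and 71.8 CPM at low dose and 97.0 and 89.0 CPM at high dose, with no overlap (0.37 ± 0.07, adjusted p = 8.31e-06).

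The falls included SDHA, the partner of SDHB, which was at 261 and 267 CPM at low dose, 257 and 255 CPM at medium dose and 189 and 192 CPM at high dose (-0.47 ± 0.05, adjusted p = 1.1e-11). Complex II thus had 1 gene that rose and 2 that fell, the other being SDHD, a membrane anchor (-0.24). All 3 genes of the rotating c ring of ATP synthase fell: ATP5MC2 (chr12:53632726-53677408), at 139 and 129 CPM at low dose and 94.0 and 88.1 CPM at high dose (-0.56 ± 0.08, adjusted p = 1.08e-07), ATP5MC1 (-0.42 ± 0.07, adjusted p = 5.02e-07) and ATP5MC3 (-0.18). Proteins of these 3 genes are known to be identical once their import signals are cut off. ATP5F1D, the delta subunit of the stalk, fell by 0.42 and ATP5F1A by 0.38, while ATP5PD of the peripheral stalk rose, from 73.5 and 74.6 CPM to 98.7 and 91.7 CPM (0.36). By complex, 8 genes of complex I rose and 10 fell, 1 of complex III rose and 2 fell, 4 of complex IV rose and 1 (COX8A, -0.26) fell, and 2 of complex V rose and 7 fell. With the library that stood apart in the fit 8 nuclear members were called, against 38.

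**Figure D3:**
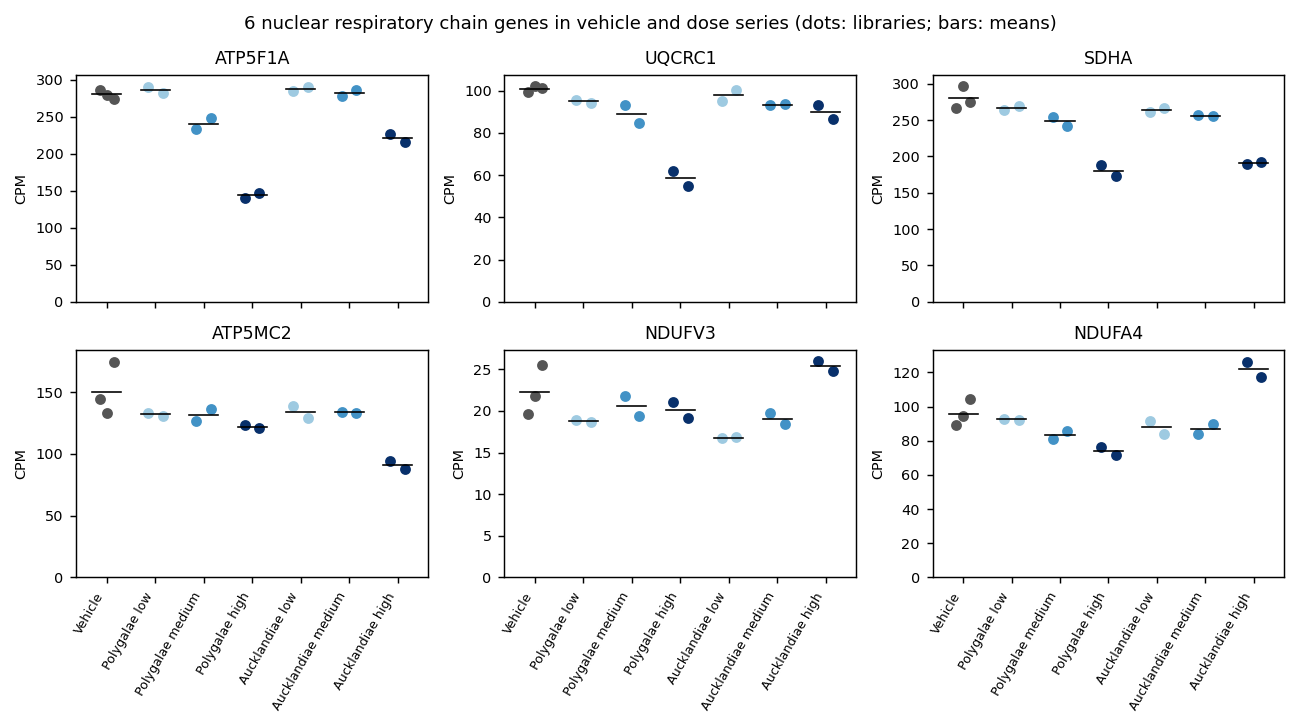
CPM of 6 nuclear genes in the vehicle libraries and in the low, medium and high dose of Polygalae Radix and Aucklandiae Radix, with a dot per library and a bar at each mean. ATP5F1A drops to 141 and 147 CPM at the high dose of Polygalae Radix, and NDUFA4 climbs to 126 and 118 CPM at the high dose of Aucklandiae Radix.

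The changes of the 2 herbs, which share a library set, differed for some members by a direct test. The difference of their low-to-high changes, Aucklandiae Radix minus Polygalae Radix, was called for 36 of 83 nuclear members, 32 positive and 4 negative with a median of 0.20, and for 2 of 13 mitochondrial members, both negative with a median over the 13 of -0.44. Over all genes 46.6% were called for this difference (24.0% higher, 22.6% lower). The nuclear count was thus close to the background, with more positive and fewer negative differences, and the mitochondrial count lay below it. The mitochondrial members were MT-CO1 (-0.65 ± 0.18, adjusted p = 0.00206) and MT-CO3 (-0.74 ± 0.18, adjusted p = 0.000668). Of the 38 nuclear members that fell with Polygalae Radix, 16 also fell with Aucklandiae Radix (42.1% of the former and 72.7% of the latter), ATP5F1A, UQCRC2, SDHA, NDUFS1 and NDUFV1 among them. Over all genes tested the same overlap was 47.9% of the genes that fell with Polygalae Radix and 26.3% of those that fell with Aucklandiae Radix. Some of these falls differed in size: ATP5F1A fell further with Polygalae Radix (difference 0.62 ± 0.07, adjusted p = 1.95e-10), as did UQCRC2 (0.44 ± 0.06), while for SDHA the difference was 0.10 (adjusted p = 0.245).

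Another 6 nuclear members fell with Polygalae Radix and rose with Aucklandiae Radix: ATP5PD, COX6C, COX7A2, NDUFA13, NDUFA4 and NDUFB5. They were 15.8% of the members that fell with the former and 37.5% of those that rose with the latter, where the shares over all genes were 27.6% and 15.0%. NDUFA4 was at 92.9 and 92.3 CPM at low dose and 76.4 and 71.9 CPM at high dose of Polygalae Radix, a fall by 0.32, and its changes with the 2 herbs differed by 0.79 ± 0.10 (adjusted p = 4.08e-09). ATP5PD differed by 0.77, NDUFA13, a complex I subunit also known as GRIM-19, by 0.62, COX7A2 by 0.55, COX6C by 0.53 and NDUFB5 by 0.48. UQCRC1 fell with Polygalae Radix and was not called with Aucklandiae Radix (-0.12, adjusted p = 0.0905), a difference of 0.58 ± 0.09. ATP5MC2 was the reverse, with -0.12 for Polygalae Radix (adjusted p = 0.308) and a difference of -0.44 ± 0.11. At the high doses themselves, 380 and 370 µg/mL, 6 mitochondrial members were higher with Polygalae Radix than with Aucklandiae Radix, from MT-CO3 (0.75) to MT-ND5 (0.38), 7 nuclear members were higher and 38 lower, and 58.3% of all genes were called.

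At the high dose of Menthae Herba some nuclear members were higher by small amounts, and no mitochondrial member was called. From low to high dose 12 of 83 nuclear members rose and none fell, with a median of 0.10 and 78 of the 83 higher, where 23.5% of all genes were called (12.0% higher, 11.6% lower). The share that rose, 12 of 83, was close to that background. No mitochondrial member was called by edgeR, 0 had an unadjusted p under 0.05 and DESeq2 called 0, with a median of -0.02. The mitochondrial sum was 81540, 82810 and 84520 CPM at low dose and 94520, 80800 and 76490 CPM at high dose, which overlap. The nuclear sum was 7452, 7268 and 7328 CPM at low dose and 7648, 7997 and 8022 CPM at high dose, which do not. This separation depends on the scaling. As a plain share of counts the nuclear set was at 0.751%, 0.734% and 0.735% at low dose. At high dose it was at 0.736%, 0.781% and 0.783%, so the groups overlap.

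ATP5F1D was at 72.2, 79.5 and 75.7 CPM at low dose, 77.8, 84.0 and 78.5 CPM at medium dose and 86.7, 92.8 and 94.3 CPM at high dose, a rise of 0.27 ± 0.07 (adjusted p = 0.00525). UQCRFS1, the Rieske iron-sulfur protein of complex III, was at 109, 105 and 108 CPM at low dose and 119, 123 and 134 CPM at high dose (0.22 ± 0.06, adjusted p = 0.00533). SDHB was at 71.4, 69.4 and 74.3 CPM at low dose and 78.9, 86.1 and 85.5 CPM at high dose (0.22 ± 0.06, adjusted p = 0.0025). In these 3 genes every high-dose library lay above every low-dose library. NDUFAB1, the acyl carrier protein that sits in complex I (0.23 ± 0.07, adjusted p = 0.0153), and NDUFS6 (0.23 ± 0.08, adjusted p = 0.0393) rose as well, and the other rises lay between 0.12 and 0.19. The rises were spread over the complexes, with 4 genes of complex I, 1 of complex II, 2 of complex III, 2 of complex IV and 3 of complex V. The number called was 3 without high replicate 3, 7 without high replicate 2 or low replicate 2 and 0 with the library that stood apart in the fit, which gave no mitochondrial call either. With no filter on low counts 2 mitochondrial members were called from low to high dose. At medium dose no member was called against low dose by edgeR, where 0.0294% of all genes were, and 0 mitochondrial members and 1 nuclear member had an unadjusted p under 0.05.

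Of the 12 nuclear members that rose with Menthae Herba, 3 also rose with Aucklandiae Radix (25.0% of the former and 18.8% of the latter), NDUFAB1, SDHB and UQCRFS1, and 4 fell with Polygalae Radix (33.3% and 10.5%), ATP5F1B, ATP5PB, COX7B and NDUFA9. Over all genes tested the first overlap was 56.9% and 23.0% and the second 19.5% and 14.6%. Against its set partner Saposhnikoviae Radix at 500 µg/mL, 12 nuclear members were higher with Menthae Herba and none lower (median 0.12), and 1 mitochondrial member, MT-ND5, was lower by -0.44, where 16.1% of all genes were called. The difference of the low-to-high changes was called for a single nuclear member, NDUFA9 (0.23, adjusted p = 0.0304), and for 3.59% of all genes.

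With Guibi-tang the mitochondrial messages MT-CO3 and MT-ATP8 fell at high dose. From low to high dose 2 of 13 mitochondrial members fell, with a median of -0.24 and all 13 lower, and 1 of 83 nuclear members fell, where 9.08% of all genes fell. The 1 of 83 lay below that share, while 2 of 13 genes that vary together are too few to be set against it. MT-CO3 was at 14420, 12340 and 10910 CPM at low dose, 13700, 12130 and 11090 CPM at medium dose and 10320, 9688 and 9255 CPM at high dose, so that every high-dose library lay below every other (-0.36 ± 0.10, adjusted p = 0.00943). MT-ATP8 was at 1589, 1124 and 1389 CPM at low dose and 989, 1033 and 732 CPM at high dose, also without overlap between those doses (-0.57 ± 0.21, adjusted p = 0.0455). NDUFB11, an X-linked subunit of the membrane arm of complex I, was at 72.2, 75.2 and 80.2 CPM at low dose and 62.9, 66.8 and 66.1 CPM at high dose (-0.22 ± 0.06, adjusted p = 0.00644). The high-dose libraries again lay below, but the call was lost without low replicate 3 (-0.17, adjusted p = 0.0562). Both mitochondrial calls were lost without low replicate 1 or without high replicate 3, and 11 mitochondrial members were called with no filter on low counts. With the library that stood apart in the fit no member of either set was called. The ribosomal RNAs MT-RNR2 (-0.33) and MT-RNR1 (-0.21) were called lower too.

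Saengmaek-san, in the same set, gave no call. All 13 mitochondrial and 77 of 83 nuclear members were higher at high than at low dose, with medians of 0.14 and 0.11. EdgeR and DESeq2 called none of them, 1 mitochondrial and 21 nuclear members had an unadjusted p under 0.05, and edgeR called 0.854% of all genes. With no filter on low counts 3 mitochondrial and 2 nuclear members were called. MT-CO3 was at 10100, 12330 and 10240 CPM at low dose and 11480, 11240 and 13150 CPM at high dose, which overlap. Its low-to-high change differed between the formulas, Guibi-tang minus Saengmaek-san, by -0.50 ± 0.15 (adjusted p = 0.0268). NDUFB11 differed by -0.35 ± 0.08 (adjusted p = 0.00478), ATP5PO, a stalk subunit of ATP synthase, by -0.30 and UQCRC2 by -0.15, and these were the 3 nuclear members called for the difference, where 7.21% of all genes were. At the high doses 10 nuclear members were higher with Saengmaek-san than with Guibi-tang and none lower (12.7% of all genes called). No mitochondrial member was called there by edgeR, and 2 had an unadjusted p under 0.05.

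Neither set gave a call for the remaining extracts from low to high dose. For Saposhnikoviae Radix the mitochondrial sum was 70010 and 96260 CPM at low dose and 92210, 99760 and 99080 CPM at high dose, and edgeR and DESeq2 called no member, with 1 mitochondrial and 14 nuclear members at an unadjusted p under 0.05 and 0.289% of all genes called. That comparison rests on 2 low-dose libraries: with the third, the one that stood apart, 8 mitochondrial and 54 nuclear members were called, and the median nuclear change went from 0.05 to -0.81. Without that library but with no filter on low counts, 8 mitochondrial members and 1 nuclear member were called for Saposhnikoviae Radix. For Soyo-san the mitochondrial sum was 78010 and 82680 CPM at low dose and 94370 and 68190 CPM at high dose, a spread within the high dose wider than the gap between doses, and edgeR and DESeq2 called no member (0 at an unadjusted p under 0.05, 2.49% of all genes called). The fit with the library that stood apart called no member for Saengmaek-san or Soyo-san either. Okbyeongpung-san had 1 library per dose and no test, with mitochondrial sums of 73550, 87090 and 85290 CPM and nuclear sums of 7436, 7527 and 7451 CPM at low, medium and high dose, all within the ranges of the other libraries. From low to medium dose edgeR called no member of either set for Saposhnikoviae Radix, Saengmaek-san, Guibi-tang and Soyo-san, with 27, 10, 0 and 1 nuclear members and no mitochondrial member at an unadjusted p under 0.05, and 0.00%, 0.00%, 0.118% and 0.00% of all genes called.

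**Figure D4:**
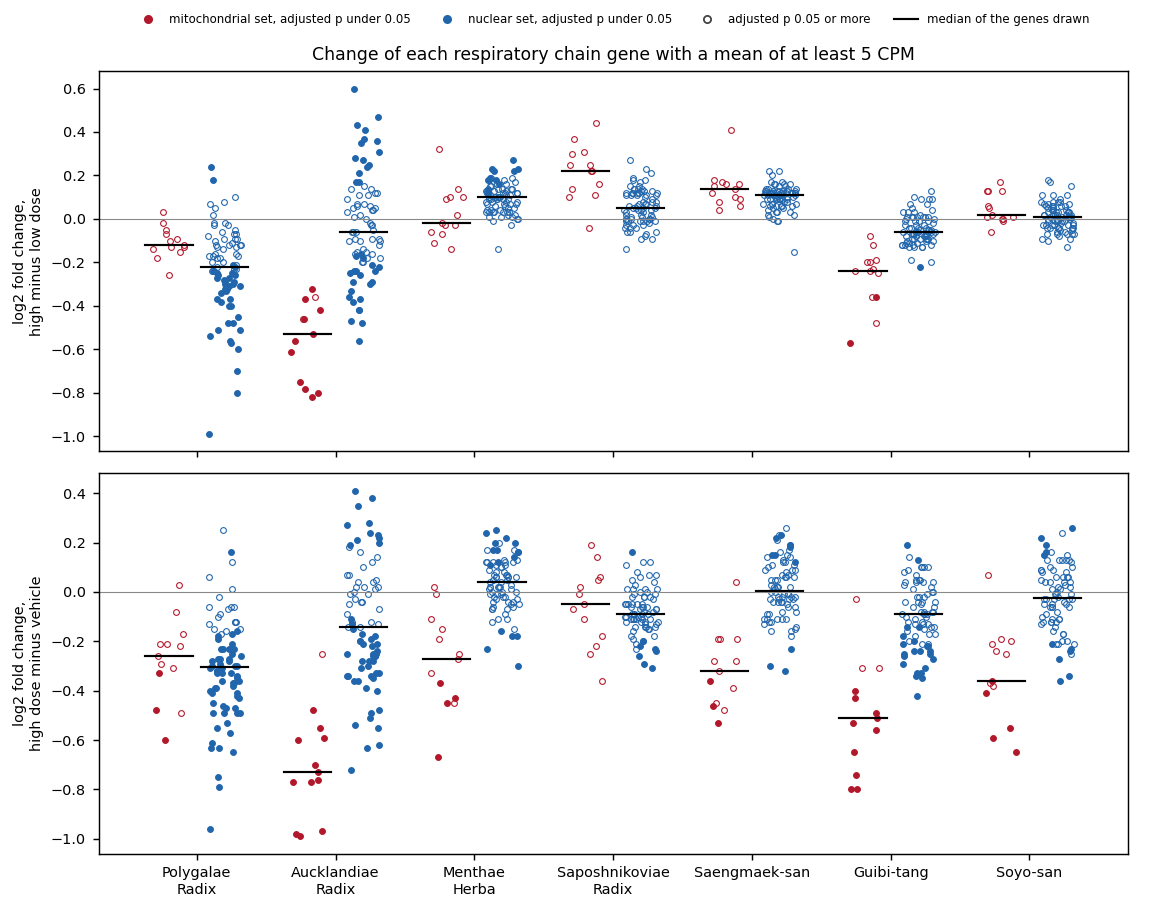
Log2 fold change at high dose of the members with a mean of at least 5 CPM (13 mitochondrial and 80 nuclear per extract) against low dose and against the vehicle, for the 7 extracts with replicates. Against low dose only Aucklandiae Radix has a mitochondrial median below -0.5, and against the vehicle the mitochondrial medians of all 7 extracts lie below 0.

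Against the vehicle the median mitochondrial change was below 0 under each of the 7 extracts. At high dose 12 of 13 members were called lower for Aucklandiae Radix (median -0.73), where 31.0% of all genes were called lower. The count was 10 for Guibi-tang (-0.51, with 14.7% of all genes), 5 for Soyo-san (-0.36, 9.22%) and 4 for Menthae Herba (-0.27, 14.5%). It was 3 each with Polygalae Radix (-0.26, 19.6%) and Saengmaek-san (-0.32, 6.16%). Saposhnikoviae Radix (-0.05, 5.01%) had none, where edgeR and DESeq2 called 0 and 2 had an unadjusted p under 0.05. No mitochondrial member was called higher in any of the 7. At low dose 8 members were called lower for Saengmaek-san, where 9.65% of all genes were, 4 for Soyo-san (5.36%) and 3 each for Menthae Herba (5.22%) and Saposhnikoviae Radix (6.41%). The low doses of Polygalae Radix (5.64%), Aucklandiae Radix (2.60%) and Guibi-tang (3.12%) had no mitochondrial call in edgeR. MT-ND3, MT-ND6 and MT-CO1 were called lower at low dose in all 4 of these extracts. MT-ND6 was at 1325, 800 and 1001 CPM in the vehicle libraries, against 509 CPM in the lowest and a median of 668 CPM over the 59 libraries. The 3 vehicle libraries differed widely among themselves, and 47 of the 56 extract libraries lay below the lowest of them. For MT-ND3 that number was 49 of 56 and for MT-CO1 48 of 56, while for MT-ND4L it was 2 of 56 and for MT-CYB 8 of 56, so the members did not stand alike against the vehicle.

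With the library labelled Saposhnikoviae Radix low replicate 2 in the fit, the mitochondrial members called at high dose against the vehicle were 11 for Aucklandiae Radix, 5 for Guibi-tang, 1 for Menthae Herba and 0 for the other 4 extracts. For Polygalae Radix, Saengmaek-san and Soyo-san leaving out 1 library ended every mitochondrial call at high dose. Polygalae Radix and Saengmaek-san had none without vehicle replicate 3, nor without high replicate 2 of either, nor Saengmaek-san without its high replicate 1, and Soyo-san had none without its high replicate 2. With no filter on low counts the counts of mitochondrial members called rose to 11 with Polygalae Radix, 10 with Menthae Herba, 5 with Saposhnikoviae Radix and 12 each for Saengmaek-san and Soyo-san.

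Some nuclear members differed from the vehicle in the same direction under most extracts. NDUFA7, an accessory subunit of complex I (chr19:8308768-8321396), was at 22.2, 26.0 and 31.8 CPM in the vehicle libraries and was called lower at high dose in all 7 extracts, by -0.23 to -0.62, and at low dose in 6 of 7. In 45 of the 56 extract libraries it lay below the lowest vehicle library. Without vehicle replicate 3 that call was lost for Menthae Herba (-0.08), Saposhnikoviae Radix (-0.16), Saengmaek-san (-0.18) and Soyo-san (-0.21). NDUFV3 was called lower at low dose in 7 of 7 and at high dose in 5 of 7, the exceptions being Polygalae Radix (-0.15, not called) and Aucklandiae Radix, where it rose by 0.19. NDUFS1 went the other way and was called higher at high dose with Menthae Herba (0.20), Soyo-san (0.19), Saengmaek-san (0.18), Saposhnikoviae Radix (0.16) and Guibi-tang (0.13). With Polygalae Radix it was called lower (-0.39), and with Aucklandiae Radix it was not called (-0.07, adjusted p = 0.137). It lay above the highest vehicle library in 50 of the 56 extract libraries and below the lowest in 4. Since these comparisons share their 3 control libraries, a gene that is high or low in those appears in all of them.

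In counts over the nuclear set at high dose against the vehicle, 1 member rose and 61 fell for Polygalae Radix (median -0.31), where 16.8% of all genes were higher and 19.6% lower. For Aucklandiae Radix 12 rose and 41 fell (median -0.14), with 31.0% of all genes higher and 31.0% lower. In both, the share of nuclear members that fell lay above the background and the share that rose below it. Guibi-tang had 2 up and 21 down (14.7% and 14.7% of all genes), again with more falls than the background. Menthae Herba had 12 up and 5 down (13.7% and 14.5%), Saposhnikoviae Radix 1 and 7 (5.18% and 5.01%), Saengmaek-san 8 and 3 (5.79% and 6.16%) and Soyo-san 5 and 6 (8.44% and 9.22%). The nuclear count called without vehicle replicate 1 was 38 for Guibi-tang, 26 for Saposhnikoviae Radix, 21 for Saengmaek-san and 25 for Soyo-san, and without vehicle replicate 3 it was 7, 0, 4 and 6 in that order. Polygalae Radix had 38 without its high replicate 3, and Menthae Herba had 8 without its high replicate 3 and 10 without its high replicate 2. With the library that stood apart in the fit the nuclear count was 14 for Polygalae Radix (against 62), 14 for Aucklandiae Radix (against 53) and 0 for the other 5 extracts. ATP5F1A with Polygalae Radix was 0.514-fold of the vehicle (-0.96 ± 0.04, adjusted p = 1.39e-21), close to its change from low dose. With Aucklandiae Radix the largest changes against the vehicle among members with a mean of at least 5 CPM were the falls of ATP5MC2 (-0.72 ± 0.08), ATP5F1D (-0.63 ± 0.08), NDUFA7 (-0.62 ± 0.10) and SDHA (-0.55 ± 0.04), and the rises of NDUFA1 (0.41 ± 0.10), ATP5PD (0.38 ± 0.06), NDUFA4 (0.35 ± 0.06) and SDHB (0.28 ± 0.06).

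**Figure D5:**
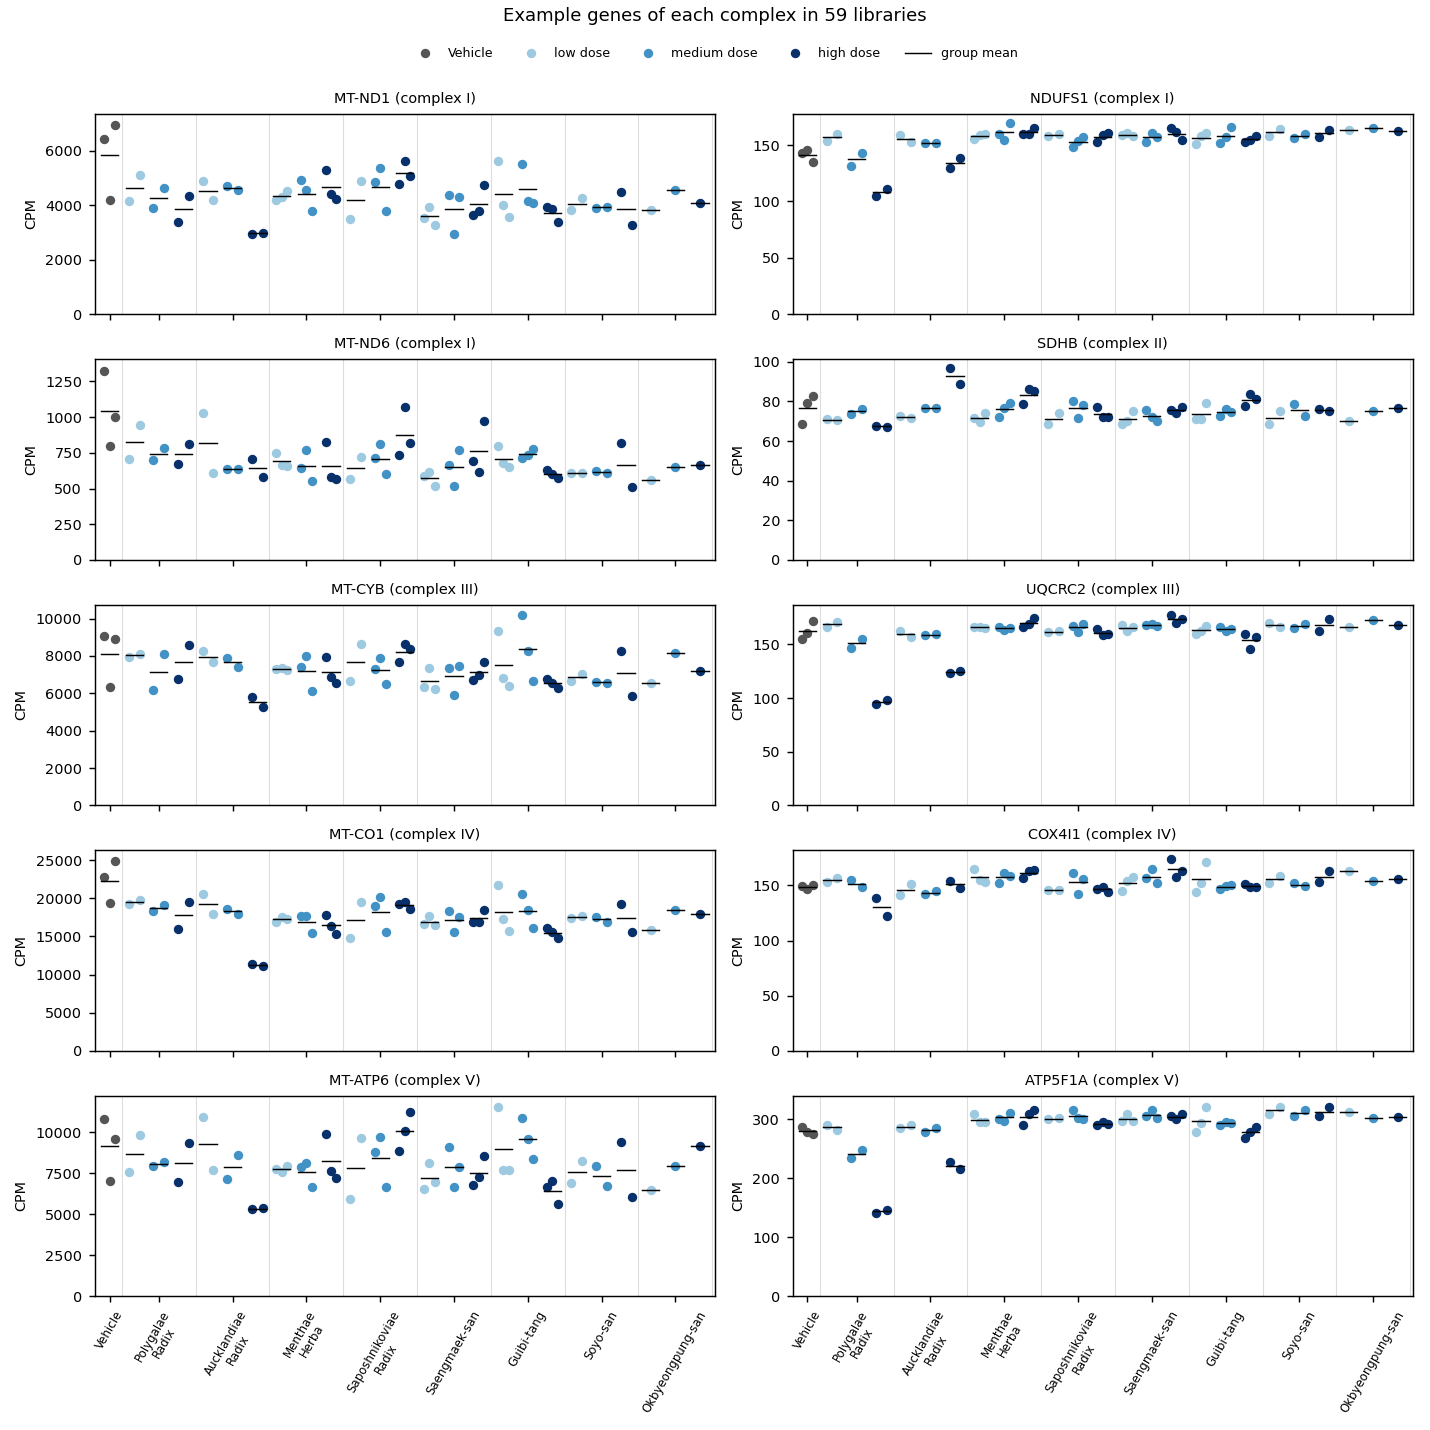
CPM of 10 example genes, 1 or more for each complex, in 59 libraries by group, with linear axes that start at 0. The mitochondrial genes scatter within most groups, while ATP5F1A and UQCRC2 reach their lowest values at the high dose of Polygalae Radix (141 and 94.8 CPM).

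Where a subunit has tissue-specific forms, HT29 cells carried the widespread one. COX4I1 had a mean of 152 CPM and COX4I2, the lung and hypoxia form, was at 0 in all 60 libraries. COX6A1 had a mean of 153 CPM against at most 0.0431 CPM for the muscle form COX6A2, COX7A2 67.0 CPM against at most 0.318 CPM for the muscle form COX7A1, and COX8A 173 CPM against 0 for COX8C. COX6B1 had a mean of 210 CPM and the testis form COX6B2 0.508 CPM. NDUFA4L2, a relative of NDUFA4 that is induced in hypoxia, was at 0.441, 0.277 and 0.590 CPM in the vehicle libraries, 0.203 and 0.378 CPM at low dose and 1.42 and 1.35 CPM at high dose of Aucklandiae Radix. It rose by 2.22 ± 0.47 (adjusted p = 8.1e-05), but at a level of about 1 CPM beside 126 and 118 CPM of NDUFA4. COX4I2, COX6A2, COX7A1, COX7B2, COX8C and ATP5MGL were too low to be tested. The readthrough genes NDUFC2-KCTD14 (mean 0.363 CPM) and ATP5MF-PTCD1 (14.7 CPM) share exons with members, and their values are uncertain.

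The genes that build and feed the chain were read from lists of related functions, with the calls from low to high dose. The list for the tricarboxylic acid cycle includes PDHA1, PDHB and DLAT of pyruvate dehydrogenase and leaves out the complex II genes. With Polygalae Radix, where 13.3% of all genes rose and 16.0% fell, all 16 genes of that list fell (median -0.45). SUCLG2 of succinyl-CoA ligase (-0.97) and MDH2, mitochondrial malate dehydrogenase (-0.83), led it. Of 16 genes of electron carriers and quinone synthesis 7 fell and none rose, with ETFB (-0.61) and ETFDH (-0.53), which pass electrons from fatty acid oxidation to quinone. Of 14 outer membrane and import genes 3 rose and 5 fell, with the matrix chaperones HSPD1 (-0.81) and HSPA9 (-0.58). By contrast 6 of 11 nuclear regulators of respiratory genes rose and none fell (median 0.35), with the PGC-1 family members PPRC1 (0.57) and PPARGC1B (0.54). Of 26 genes of mitochondrial DNA transcription, replication and RNA handling 9 rose and 3 fell, from TRMT10C, which helps cut transfer RNAs from the long transcript (0.67), to LRPPRC, which stabilises mitochondrial messages (-0.50). The assembly factors went both ways, with 2 up and 4 down of 16 for complex I, 5 up and 4 down of 23 for complex IV, and 0 up and 2 down of 5 for complex V. In the same comparison 8 of 11 colon epithelial markers fell and none rose, VIL1 (villin) by 1.58 on the log2 scale, and the part of that in the respiratory changes was not tested.

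With Aucklandiae Radix, where 29.6% of all genes rose and 29.2% fell, the same lists were mixed. Of the 26 genes of mitochondrial DNA expression 6 rose and 5 fell, both below those shares, with falls of MGME1, a mitochondrial exonuclease (-0.70), and TFAM, the transcription and packaging factor of mitochondrial DNA (-0.50), and a rise of MTERF3 (0.59). Among 11 regulators 4 rose and 5 fell, with TFE3 (1.15) and PPARGC1B (-0.97) at the ends among those with a mean of at least 5 CPM. PPARGC1A rose by 1.61 (adjusted p = 0.0151) at a mean of 0.228 CPM. The carriers had 3 up and 7 down of 16, with the quinone synthesis genes COQ2 (-1.39) and COQ7 (-0.91), and all 5 genes of the complex V assembly and inhibitor list were called, 2 up and 3 down, with the ATP synthase inhibitor ATP5IF1 at -0.75. The tricarboxylic acid cycle list had 4 up and 7 down of 16 (SUCLG2 -0.87, FH -0.59), and outer membrane and import 8 up and 4 down of 14 (VDAC2 0.60, VDAC1 0.40). Epithelial markers were called in both directions, 4 up and 5 down of 11, and their part was not tested.

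With Menthae Herba, where 12.0% of all genes rose and 11.6% fell, most calls in these lists were rises: 12 of 14 outer membrane and import genes rose and none fell (median 0.22), with TOMM40, the pore of the outer membrane import complex (0.38). Of the 26 genes of mitochondrial DNA expression 10 rose and none fell, with the mitochondrial helicase TWNK (0.33) and SLIRP, the partner of LRPPRC (0.26). Also 6 of 16 tricarboxylic acid cycle genes, 5 of 16 carrier genes and 4 of 16 complex I assembly factors rose, NDUFAF4 by 0.51, without a fall in any of these 3 lists. Of the 5 genes of the complex V assembly and inhibitor list TMEM70 rose (0.18) and ATPAF2 fell (-0.23). In the same comparison 2 of 11 colon epithelial markers rose and 5 fell, CEACAM5 by 0.58 and VIL1 by -0.52 among them, and their part in these changes was not tested. Neither mitochondrial ribosomal RNA was called.

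Promoters of nuclear members are shown because many of these members changed together, and the known binding letters of their regulators could be read in them. RefSeq promoters (GRCh38.p14, 250 bases before to 50 after a start) were matched for 70 of the 89 nuclear members, with 83 start sites. The NRF1 letters, GCGCA then any base N then GCGC, stood on either strand in 20.5% of the 83 windows, against 7.4% of the 22199 promoters of protein-coding genes and 5.8% of all 35116 promoters. CCGGAAGT (GABPA and other ETS factors) stood in 14.5% against 5.3% and 4.1%, and AAGATGGC (YY1) in 15.7% against 3.5% and 2.9%. At least 1 of the 3 stood in 42.2% against 14.8% and 11.7%. Printed below are 150 bases upstream for SDHA, which fell with both herbs, UQCRC1, which fell with Polygalae Radix, UQCRC2, which fell with both, and UQCR11, which rose with Polygalae Radix. They read 5′ to 3′ on the gene's strand, with matches to any of the 3 motifs in capitals.
SDHA, chr5:218170-218319, plus strand: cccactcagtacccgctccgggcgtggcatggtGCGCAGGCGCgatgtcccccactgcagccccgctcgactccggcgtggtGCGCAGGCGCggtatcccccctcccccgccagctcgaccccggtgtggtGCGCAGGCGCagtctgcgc
UQCRC1, chr3:48609647-48609796, minus strand: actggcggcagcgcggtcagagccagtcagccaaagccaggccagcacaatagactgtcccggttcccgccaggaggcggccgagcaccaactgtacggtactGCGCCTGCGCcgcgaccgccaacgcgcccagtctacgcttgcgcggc
UQCRC2, chr16:21953211-21953360, plus strand: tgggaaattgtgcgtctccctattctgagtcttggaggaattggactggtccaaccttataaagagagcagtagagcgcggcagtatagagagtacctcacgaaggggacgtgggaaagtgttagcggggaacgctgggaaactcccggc
UQCR11, chr19:1605463-1605612, minus strand: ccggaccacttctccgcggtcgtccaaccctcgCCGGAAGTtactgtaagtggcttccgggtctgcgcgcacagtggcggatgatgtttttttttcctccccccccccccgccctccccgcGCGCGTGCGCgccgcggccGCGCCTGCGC
Among these, SDHA has 3 NRF1 matches in its stretch and UQCRC2, which fell with the same herbs, has none, while UQCR11, with 2 NRF1 matches and 1 ETS match, rose. Counted over genes with a matched promoter and at least 1 of the 3 motifs, they were 1 of 2 that rose, 15 of 30 that fell and 17 of 35 not called with Polygalae Radix, 6 of 11 that rose, 12 of 20 that fell and 15 of 36 not called with Aucklandiae Radix, and 6 of 10 that rose and 27 of 57 not called with Menthae Herba. A match describes letters and no binding, and start sites used in HT29 cells were not measured here.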

How the data were processed

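Per the submitters' processing notes the authors used FastQC 0.11.9, STAR 2.7.3a, Trim Galore 0.6.5 and RSEM 1.3.3 with hg38, and they deposited RSEM's expected counts per gene. Which annotation release and strand option the counting used is not given in the sources used here. Among the deposited values 10.0% were not whole, and all were rounded. The table holds 60675 genes in 60 libraries, and symbols matched for 56558. Coordinates and gene types are those of GENCODE 29 (GRCh38), which holds 57055 of the genes.

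The fit used edgeR 4.0.16 (R 4.3.3): TMM factors, filterByExpr, 1 coefficient for each of 22 groups, 56 libraries, 34 residual degrees of freedom, 16978 genes, a two-sided quasi-likelihood F-test and Benjamini-Hochberg adjustment over all genes. The calling threshold was adjusted p under 0.05. Okbyeongpung-san, with 1 library per dose, and the library that stood apart were not fitted. CPM were scaled with the same factors. DESeq2 1.42.0 and other settings were alternatives. Replicate numbers did not pair libraries: deviations of same-numbered libraries correlated by -0.04 to 0.06 over 17 pairs. On data simulated for Aucklandiae Radix high against low (16426 genes), the test recovered 52% of log2 changes of 0.3 and 96% of those of 0.5. The simulation gave every gene 1 common spread (dispersion 0.00263). These shares therefore do not hold for the mitochondrial members, which varied more between replicates than most genes.

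The members, lists and tests were chosen with earlier results of these data known. Named were all 13 mitochondrial genes, up to 4 largest called rises and falls per comparison among nuclear members with a mean of at least 5 CPM, isoform pairs, examples of each complex and up to 2 genes of each list. SDHB in the tests of Menthae Herba, PPARGC1A, the smaller changes given by value only, and the genes of overlaps between extracts were named after their values were seen.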

Additional observations from a re-analysis of the deposited data

Results flagged for a closer look

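Changes from low to high dose differed between the 2 herbs of 1 library set by a direct test of the difference (edgeR, Aucklandiae Radix minus Polygalae Radix). It was called for 2 of 13 mitochondrial and 36 of 83 nuclear members, beside 46.6% of all genes. The nuclear share was close to that background and the mitochondrial share below it. The log2 differences were -0.65 for MT-CO1 and -0.74 for MT-CO3, and for nuclear members 0.79 for NDUFA4, 0.65 for NDUFA1, 0.62 for ATP5F1A, 0.60 for NDUFB9, 0.58 for UQCRC1, 0.50 for NDUFV3, 0.44 for UQCRC2, 0.39 for ATP5F1C and -0.44 for ATP5MC2. Between Guibi-tang and Saengmaek-san the same test was called for 1 mitochondrial member, MT-CO3 (-0.50), and for 3 nuclear members, among them NDUFB11 (-0.35). Between Menthae Herba and Saposhnikoviae Radix it was called for 1 nuclear member.

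The library labelled Saposhnikoviae Radix low replicate 2, which was left out of the fit behind the comparisons, had a summed nuclear set of 25320 CPM, above the 7178 to 8198 CPM of the vehicle libraries. By complex it held 9984 CPM of complex I against 1846 to 2641 CPM in the other 59 libraries, 2439 against 667 to 903 CPM of complex III, 5493 against 1104 to 1458 CPM of complex IV and 7010 against 1773 to 2638 CPM of complex V. Complex II went the other way, with 389 CPM against 424 to 585 CPM. Its ratio of mitochondrial to nuclear messages was 1.51, against 8.55 to 15.9 in the others. What set it apart was not tested.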

How the results depend on the processing

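Counts of members called are given as mitochondrial and nuclear, first for high against low dose and then for high against vehicle. With DESeq2 size factors in edgeR, or with mitochondrial genes left out of the scaling, all 28 such counts stayed within 1.5 times. With the replicate number as a block the same held (for example 10 mitochondrial members for Aucklandiae Radix high against low), and since the numbers do not pair the libraries this is given only here. With the set as well as the replicate block 3 nuclear members were called for Guibi-tang high against low, where the count had been 1. DESeq2's test moved only that comparison, to 1 and 2. In CPM of the deposited totals without TMM factors, 32 mean set sums of groups stayed within the spread of the group's libraries and 12 moved by more.

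With the library labelled Saposhnikoviae Radix low replicate 2 in the fit (57 libraries), nuclear counts against low dose went from 40 to 11 for Polygalae Radix, 38 to 8 for Aucklandiae Radix, 12 to 0 for Menthae Herba, 1 to 0 for Guibi-tang and 0 to 54 for Saposhnikoviae Radix, and mitochondrial counts from 11 to 4 for Aucklandiae Radix, 2 to 0 for Guibi-tang and 0 to 8 for Saposhnikoviae Radix. Against the vehicle nuclear counts went from 62 and 53 to 14 for Polygalae Radix and 14 for Aucklandiae Radix, and to 0 for the other 5 extracts. Mitochondrial counts there went to 0 for Polygalae Radix, Saengmaek-san and Soyo-san, 1 for Menthae Herba and 5 for Guibi-tang. With no filter on low counts mitochondrial counts against low dose were 2 with Polygalae Radix, 2 with Menthae Herba, 8 with Saposhnikoviae Radix, 3 with Saengmaek-san and 11 with Guibi-tang, and against the vehicle 11, 10, 5 and 12 for the first 4 in that order and 12 for Soyo-san. Nuclear counts without the filter moved to 1 for Saposhnikoviae Radix, 2 for Saengmaek-san and 4 for Guibi-tang against low dose, and to 15 for Saposhnikoviae Radix against the vehicle. The cause was not tested for any of these.

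Leaving out 1 library at a time, where a group left with 1 library was assumed to vary like the others, gave these ranges against low dose: 0 to 0 and 26 to 44 for Polygalae Radix, 3 to 10 and 30 to 33 for Aucklandiae Radix, 0 to 0 and 3 to 15 for Menthae Herba, 0 to 4 and 1 to 4 for Guibi-tang, and 0 throughout for the other 3 extracts. Against the vehicle they were 0 to 6 and 38 to 64, 11 to 13 and 38 to 54, 2 to 7 and 8 to 18 for the same 3 herbs, 0 to 2 and 0 to 26 for Saposhnikoviae Radix, 0 to 7 and 3 to 21 for Saengmaek-san, 7 to 12 and 7 to 38 for Guibi-tang, and 0 to 8 and 3 to 25 for Soyo-san. The lowest nuclear counts of Saposhnikoviae Radix (0) and Guibi-tang (7) against the vehicle came without vehicle replicate 3 and the highest without vehicle replicate 1. The median nuclear change against low dose ran from -0.10 to 0.01 for Aucklandiae Radix (0.01 without high replicate 3) and from -0.09 to 0.01 for Guibi-tang (0.01 without low replicate 3). Against the vehicle it ran from -0.02 (without vehicle replicate 1) to 0.08 for Menthae Herba, from -0.03 to 0.05 (without vehicle replicate 3) for Saengmaek-san and from -0.09 to 0.02 (without vehicle replicate 3) for Soyo-san. Of named members and medians under these fits, 578 values stayed the same, 148 lost the call, 22 moved by more than the replicate spread and 5 turned. A member counted as the same where it kept direction and call. A median counted as the same where it moved by less than the replicate spread, whatever its sign.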
